A study of Caenorhabditis elegans with 2 samples.

Results

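The genes examined are 9 of the genes through which Caenorhabditis elegans kills cells, removes their corpses and makes cells that are fated to die: ced-3, ced-4, ced-9, ced-1, ced-2, ced-5, ced-12, ced-10 and pig-1. They are 9 of 19973 nuclear protein-coding genes and were named by function, with earlier results of these data known. A peak was given to a gene when its summit, the base of highest enrichment, lay between 2000 bp upstream of the gene start and the gene end. Binding of MAB-5, a Hox transcription factor of the posterior body, was measured by chromatin immunoprecipitation and sequencing (ChIP-seq) of an eGFP-mab-5 fusion. The embryos were of mixed stage and pooled sex, taken as whole organisms from strain OP27, which carries unc-119(ed3) III and the insertion wgIs27. The 2 libraries are labelled biological replicates of 1 group, with fragments of 150 to 350 bp and no other genotype, stage or treatment, so there is no comparison between conditions and no test. The number of reads behind each value is unknown. The fusion is made by a transgene and all cells of the embryo were pooled, so the cells in which a site was bound cannot be told apart.

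In C. elegans, a BH3-only protein such as EGL-1 binds the Bcl-2-like protein CED-9, which then releases the Apaf-1-like protein CED-4, and CED-4 activates the caspase CED-3. The corpse is engulfed through the receptor CED-1 and through CED-2, CED-5 and CED-12, which act on the Rac GTPase CED-10. PIG-1, a kinase related to mammalian MELK, is needed for asymmetric divisions of neuroblasts that give a small daughter fated to die. MAB-5, with its cofactor CEH-20, is known from genetics to act upstream of egl-1 in a ventral cord neuron.

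Of the 9 genes, ced-2, pig-1 and ced-9 had a summit in the authors' thresholded list, against 2.93% of all genes. This list was thresholded by the irreproducible discovery rate, a measure of how well ranks repeat between replicates, and holds the 502 strongest peaks of the list called on both replicates pooled. All 3 summits were intergenic, as were 351 of the 481 nuclear thresholded summits, and lay upstream of the gene. The windows of the 9 genes were longer than most, with a median of 6304 bp against 4027 bp for all genes, and the part of length in this count was not tested. The bases around the 3 summits are shown because these sites set the 3 genes apart from the other 6. Each runs 5′ to 3′ for 201 bases on the strand of the gene, with the summit at its middle base, from the RefSeq genome WBcel235, whose coordinates are those of ce11. The coordinates are chrIV:1595938-1596138 (plus strand) for ced-2, chrIV:519526-519726 (minus strand) for pig-1 and chrIII:10334069-10334269 (plus strand) for ced-9. Capitals mark matches, on either strand, to the homeodomain words (TAATTA or its variant TAATTG, and TAATGA or its variant TAATGG) and to the word GAGACG, which was picked after these windows had been read.
ced-2: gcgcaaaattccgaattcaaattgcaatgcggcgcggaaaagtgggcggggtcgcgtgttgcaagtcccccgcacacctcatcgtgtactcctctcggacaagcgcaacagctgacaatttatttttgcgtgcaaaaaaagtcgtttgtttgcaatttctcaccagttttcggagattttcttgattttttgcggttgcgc
pig-1: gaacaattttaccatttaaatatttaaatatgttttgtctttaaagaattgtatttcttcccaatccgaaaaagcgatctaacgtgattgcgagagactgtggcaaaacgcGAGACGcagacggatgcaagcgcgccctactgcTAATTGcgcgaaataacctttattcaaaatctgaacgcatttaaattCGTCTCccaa
ced-9: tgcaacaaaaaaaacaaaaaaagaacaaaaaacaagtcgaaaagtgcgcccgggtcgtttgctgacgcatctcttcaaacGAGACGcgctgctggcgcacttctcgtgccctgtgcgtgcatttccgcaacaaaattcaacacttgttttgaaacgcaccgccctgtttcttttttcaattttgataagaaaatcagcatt

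Neither the composite word of Hox proteins with PBC cofactors, TGATNNAT, nor the Meis-type word TGACAG occurred in these 3 windows on either strand. Among all 481 nuclear thresholded summits, 28.7% had TGATNNAT within 100 bp and 11.2% had TGACAG. The homeodomain words occurred once, in the pig-1 window, as TAATTG from 44 to 49 bp downstream of the summit. They were present at 34.7% of the thresholded summits and in 40.9% of windows of the same length centred 100 bp upstream of the 19973 gene starts. GAGACG occurred 15 to 20 bp upstream of the ced-9 summit and at 2 places near the pig-1 summit, from 11 to 16 bp downstream and, on the other strand, from 91 to 96 bp downstream. It was in 26.0% of the windows at thresholded summits, in 6.13% at pooled summits and in 7.56% at gene starts. A match or its absence says only which letters stand in these windows.

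The killing genes differed among themselves, with ced-9 in the thresholded list and ced-3 and ced-4 outside it. ced-9 (WBGene00000423), the Bcl-2-like brake on killing, runs from chrIII:10335172-10337522 on the plus strand. Its listed peak covered chrIII:10333999-10334338, with the summit 1003 bp upstream of the gene start. The signal value, the authors' measure of enrichment, was 35.1 in the pooled list, where the peak ranked 467 of 30000. In the replicates' own lists the site had a signal value of 20.4 in replicate 1, at rank 162, and of 16.1 in replicate 2, at rank 1947. It thus stood among the strongest peaks of replicate 1 and well below them in replicate 2, with summits 48 and 24 bp from the pooled one. Signal values are on a scale of their own in each list, so lists are set side by side by rank.

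The ced-9 site lay between other genes that start closer to it. The nearest gene start was that of mev-1, on the plus strand, which encodes a subunit of mitochondrial complex II and stands before ced-9 in the same operon. From the start of jmjd-4, on the minus strand, the summit lay at -151 bp, and the window of T07C4.12 held it too. ced-9 is therefore called by the 2000 bp window and not by the nearest gene start. Elsewhere around ced-9 the pooled list and replicate 1 had no further summit, and replicate 2 had 3 weaker ones, the strongest at +812 bp and rank 8297.

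ced-4 (WBGene00000418; chrIII:4852325-4855171, plus strand), the Apaf-1-like activator, had the lowest best signal value of the 9 genes in the pooled list, but not in either replicate. Its pooled summits lay at -368 bp between genes, at a signal value of 10.7 and rank 16866, and at +1648 bp in an intron, with a signal value of 8.77. Neither had a replicate summit within 100 bp, but replicate 2 peaks with summits at -506 and +1529 bp overlapped the 2 pooled peaks. The best ranks in the replicates' own lists were higher. They were 4897 for a summit at +2288 bp in replicate 1 and 8051 for the one at -506 bp in replicate 2. The replicate 1 summit lay in a coding exon of ced-4, but the start of C35D10.8 was nearest, with the summit at -605 bp from it. The replicate 2 summit lay in the 3′ UTR of the neighbouring F26A1.1, with the ced-4 start nearest. Each of these 2 summits was also in the windows of 2 other genes. The replicates thus had their best summits at different places. Of all genes, 49.0% had a stronger pooled summit than ced-4.

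ced-3 (WBGene00000417; chrIV:13198261-13204137, minus strand), the caspase gene, had its pooled summits inside the gene. There were 3 of them, all in introns, at +3878 bp with a signal value of 16.5, at +1413 bp with 16.1 and at +241 bp with 15.1. They ranked 4622, 5017 and 6140. Replicate 2 had a summit within 100 bp of the first and the last of these, at ranks 9909 and 10578, and replicate 1 had none within 100 bp of any. The best summits were at +3987 bp in replicate 1 (rank 8534) and at +1267 bp in replicate 2 (rank 4021). Their peaks overlapped the pooled peaks at +3878 and +1413 bp, in that order. The window at +241 bp, chrIV:13203796-13203996 on the minus strand, is shown because it holds TGATNNAT in the letters TGATTAAT, 36 to 43 bp upstream of the summit. Capitals mark this word, TAATGG and GAGACG, all 3 of which lie in coding exon sequence beside the short intron under the summit.
ced-3: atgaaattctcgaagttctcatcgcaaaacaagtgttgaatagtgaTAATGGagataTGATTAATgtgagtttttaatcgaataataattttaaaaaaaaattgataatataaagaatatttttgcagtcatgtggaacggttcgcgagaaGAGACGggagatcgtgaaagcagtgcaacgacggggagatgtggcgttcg

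**Figure D1:**
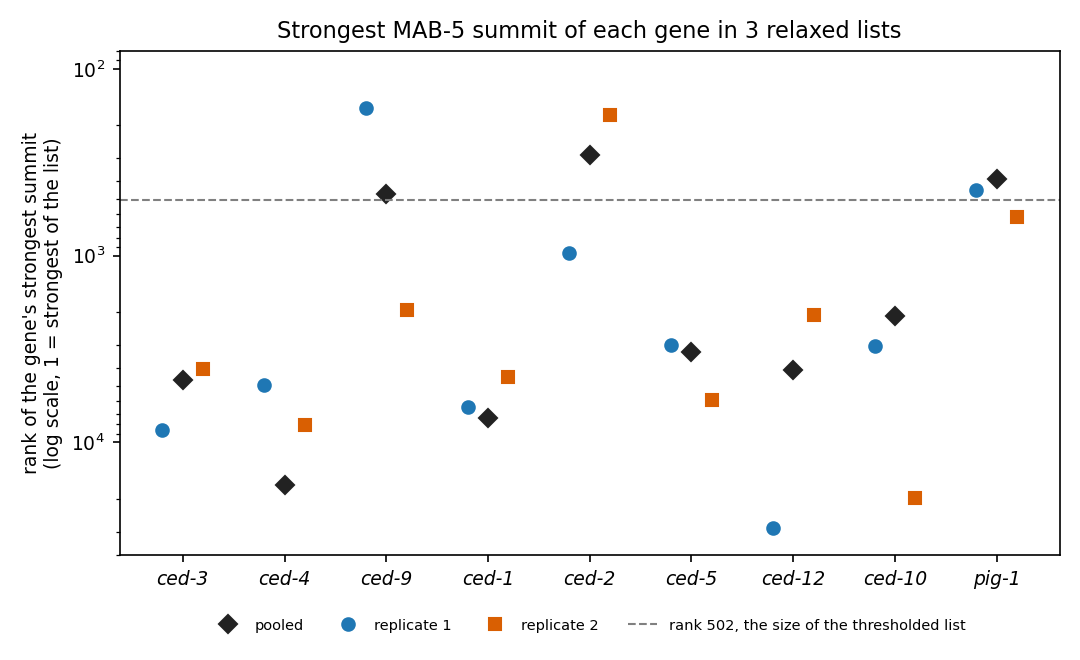
Rank of the strongest summit of each gene (vertical log axis, 1 is the strongest peak) in the pooled list (black diamonds), replicate 1 (blue circles) and replicate 2 (orange squares), each of 30000 peaks. The dashed line is rank 502, the size of the thresholded list, and ced-9, ced-2 and pig-1 alone have points above it.

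None of the 3 thresholded sites was among the 502 strongest peaks of both replicates. The ced-9 and pig-1 sites were so in replicate 1 and the ced-2 site in replicate 2. Of all 481 nuclear thresholded sites, 177 (36.8%) were among the strongest 502 of both replicates, 251 of replicate 1 and 351 of replicate 2. The plot of best ranks shows the largest gap between replicates at ced-12 and the smallest at pig-1.

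In the pooled list and in replicate 2, ced-2 had the strongest summit of the 9 genes, while in replicate 1 it came after ced-9 and pig-1. It ranked above ced-5, ced-12 and ced-10, which act with it, in all 3 relaxed lists. ced-2 (WBGene00000416; chrIV:1597318-1601621, plus strand), which encodes a CrkII-like adaptor, had its listed peak at chrIV:1595868-1596207, with the summit 1280 bp upstream. The signal value was 41.2 in the pooled list, at rank 288. It was 11.9 in replicate 1, at rank 965, and 33.9 in replicate 2, at rank 177. Here replicate 2 was the one with the higher rank, the reverse of ced-9, and the summits lay 43 and 15 bp from the pooled one. The summit lay at -214 bp from the start of npp-8, a nucleoporin gene on the minus strand that starts divergently from ced-2, so npp-8 was nearer. The other 3 pooled summits of ced-2 were near the bottom of the list, at ranks 24792 to 29283.

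ced-5 (WBGene00000419; chrIV:10484110-10492913, plus strand), the DOCK180-like partner of CED-12, had 4 pooled summits. The strongest was in an intron at +6223 bp, with a signal value of 18.2 and rank 3282, but the matching summits ranked 28619 in replicate 1 and 24098 in replicate 2. A second site at -45 bp had a lower pooled signal value, 14.2 at rank 7595, and higher replicate ranks. It ranked 2996 in replicate 1, with a signal value of 8.64, and 5923 in replicate 2, with 11.7. The replicate summits at the start of ced-5 lay 6 and 4 bp from the pooled one. The order of the 2 ced-5 sites in the pooled list was thus the opposite of that in each replicate.

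ced-12 (WBGene00000426; chrI:10222881-10227009, minus strand), the ELMO-like partner of CED-5, showed the widest gap between replicates. The pooled list had 4 summits, led by one at -242 bp in the 3′ UTR of the neighbouring csnk-1, with a signal value of 17.1 and rank 4079, and one at +1154 bp with 16.6 and rank 4517. In replicate 2 these ranked 2078 and 2217. In replicate 1 the place at -242 bp had a summit at rank 28699, close to the end of the list, and that at +1154 bp had none within 100 bp. The values of ced-12 thus rest on replicate 2. The nearest thresholded summit was 8479 bp upstream of ced-12, with a signal value of 42.8, outside the window.

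ced-10 (WBGene00000424; chrIV:3506328-3509527, minus strand), the Rac GTPase gene, came next after the 3 thresholded genes in the pooled list and was the weakest of the 9 in replicate 2. Its strongest pooled summit lay on the last base of the gene, at +3199 bp, with a signal value of 20.8 and rank 2114. The replicate summits there, at rank 1705 in replicate 1 and 7438 in replicate 2, fell 3 and 6 bp from it but past the gene end and so outside the window. Inside the window, an intron site at +1655 bp had a signal value of 19.5 and rank 2569. It ranked 3062 in replicate 1 and 19880 in replicate 2. The signal values just inside and just outside the thresholded list among the 9 genes were thus 35.1 for ced-9 and 20.8 for ced-10, while the lowest value in that list was 34.3.

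ced-1 (WBGene00000415; chrI:11851554-11868105, minus strand), the engulfment receptor gene, has the longest window, 18552 bp, and held the most pooled summits, 8, of which none lay upstream of the gene. The strongest was in an intron at +13183 bp, with a signal value of 14.3 and rank 7360. Replicate 2 had its summit on the same base, at rank 4464, and replicate 1 had none within 100 bp. The best summit of replicate 1, at rank 6461, lay at +11557 bp. The replicates therefore placed the strongest ced-1 site in different parts of the gene.

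pig-1 (WBGene00021012; chrIV:506731-519457, minus strand), the MELK-type kinase gene, had the site with the most even replicate ranks among the 3 thresholded ones. Its listed peak covered chrIV:519456-519795, with the summit 169 bp upstream of the gene start. The signal value was 37.0 in the pooled list, at rank 388. It was 14.8 in replicate 1, at rank 443, and 22.7 in replicate 2, at rank 618. The summits lay 12 and 21 bp from the pooled one, and no other gene window held the site. Its nearest gene start was that of pig-1 itself, unlike the ced-2 and ced-9 sites. Within the gene, pooled summits at +2341 and +12161 bp were weak, with signal values of 11.3 and 8.25.

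**Figure D2:**
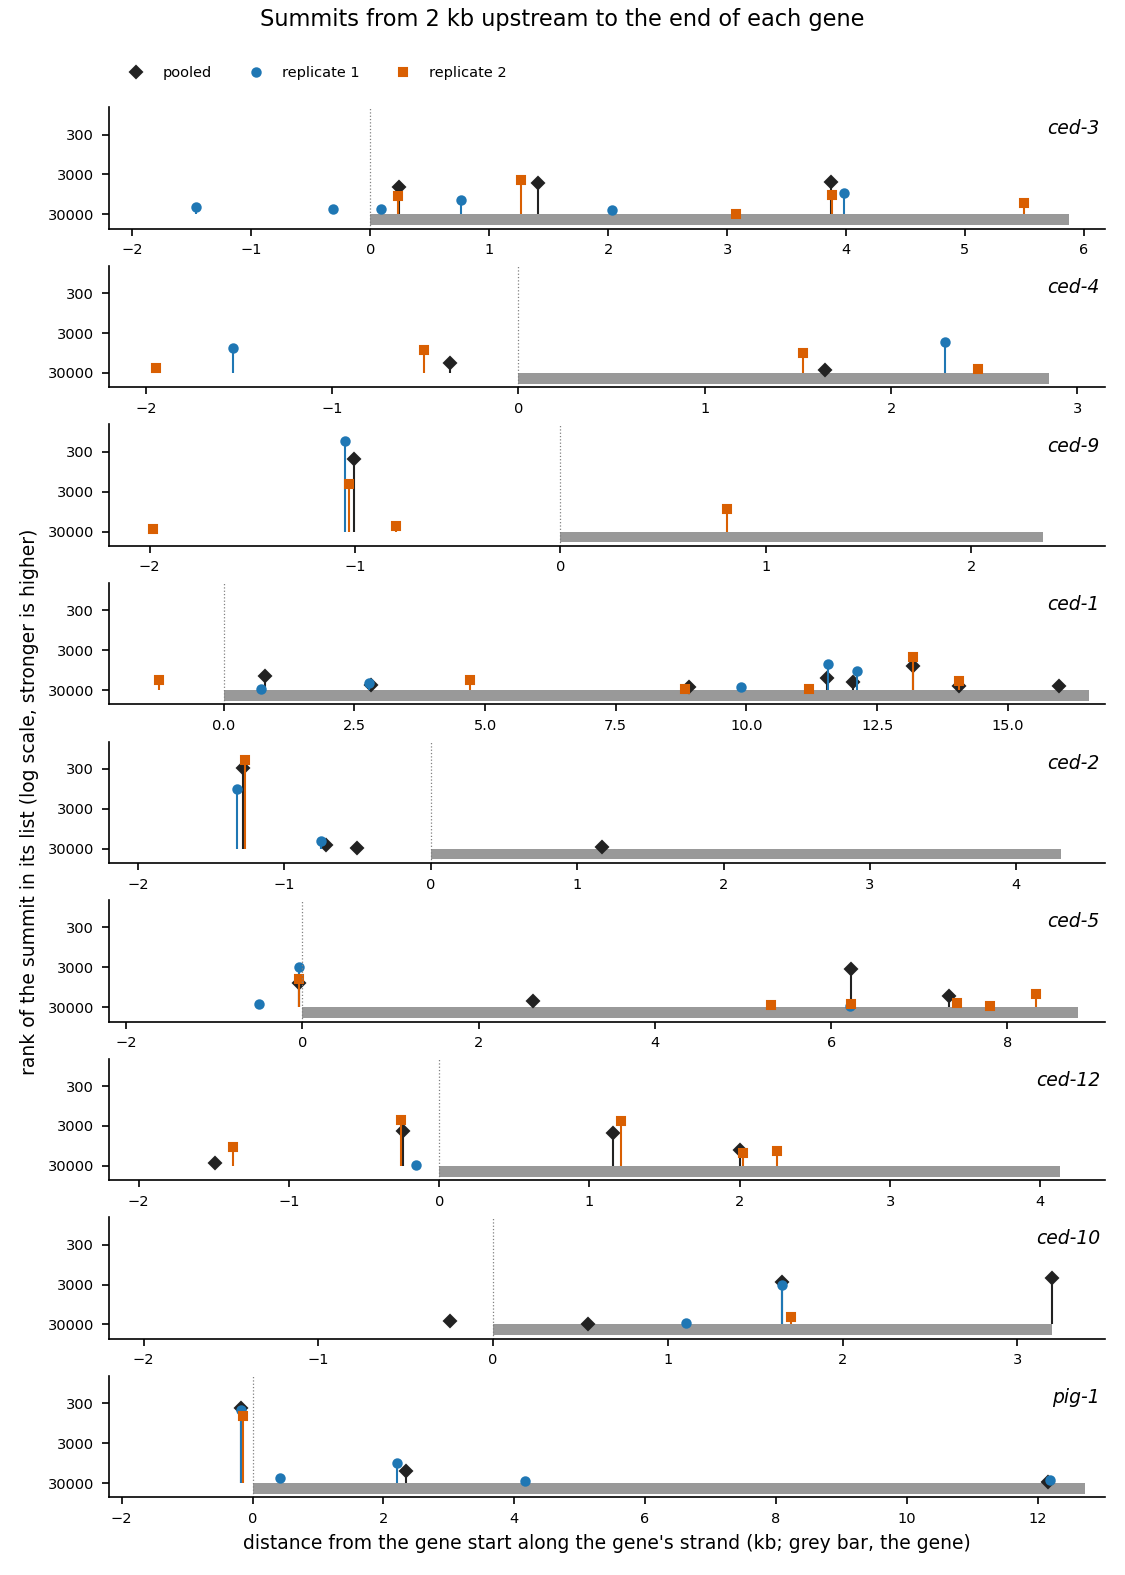
Summits of the 9 genes by distance from the gene start in kb (horizontal, 1 panel a gene, grey bar for the gene) and by rank in the list (vertical log axis, stronger is higher), for the pooled list (black), replicate 1 (blue) and replicate 2 (orange). Both replicates have a summit within 100 bp of the pooled one upstream of ced-9, ced-2, pig-1 and ced-12. They also do at the start of ced-5, at +6223 bp within it, and at +1655 bp in ced-10. The same holds at the end of ced-10, where the replicate summits fall outside the window and are not drawn. Over ced-3, ced-4 and ced-1 no pooled summit has one of both replicates within 100 bp. At ced-3, peaks of all 3 lists overlap, with summits at +3878 (pooled), +3987 (replicate 1) and +3885 bp (replicate 2).

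Each of the 9 genes had a summit in every relaxed list, and these lists, which include background peaks, reach most genes. Summits of the pooled list lay in the windows of 64.7% of all genes, those of replicate 1 in 70.6% and those of replicate 2 in 66.8%, so presence alone separates few genes. By strength, 7 of the 9 had one of the 5000 strongest pooled summits, against 21.9% of all genes, the exceptions being ced-1 and ced-4. In the replicates' own lists 6 of 9 did, against 22.3% in replicate 1 and 21.7% in replicate 2. Counting the 1000 strongest, 3 of 9 were reached in the pooled list (5.83% of all genes) and in replicate 1 (5.62%), and 2 of 9 in replicate 2 (5.47%). The median best rank of the 9 genes was 3282 in the pooled list, 3062 in replicate 1 and 4021 in replicate 2. Among all genes with a summit it was 8543, 9259 and 8952.5 in the same lists. Longer windows hold more summits, and the part of window length in these ranks was not tested.

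**Figure D3:**
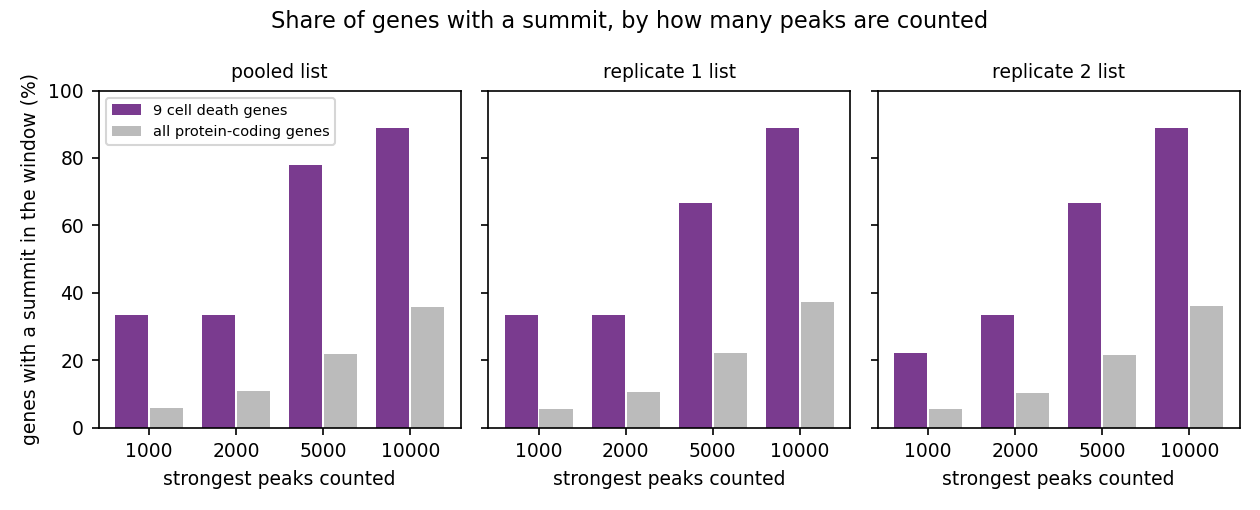
Percent of the 9 cell death genes (purple) and of all 19973 protein-coding genes (grey) with a summit in their window when the strongest 1000, 2000, 5000 or 10000 peaks of a list are counted, by list. At 10000 peaks, 8 of the 9 genes are reached in each list, against 35.9%, 37.4% and 36% of all genes in the pooled, replicate 1 and replicate 2 lists.

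The 9 windows held 33 pooled summits, from 1 at ced-9 to 8 at ced-1, or a median of 0.413 per kb against 0.258 per kb over all genes. Replicate 1 had 27 summits in them, at a median of 0.317 per kb against 0.274, and replicate 2 had 33, at 0.555 against 0.266. Within 100 bp of a pooled summit, replicate 1 had a summit in 14 cases (42.4%, against 34.3% of all 29978 nuclear pooled summits) and replicate 2 in 16 (48.5% against 55.0%). Both had one in 8 cases (24.2% against 14.2%), and neither in 11 (33.3% against 24.9%). The pooled list contains both replicates, so these shares are no independent check. Between the replicates themselves, 7 of 27 replicate 1 summits (25.9%) had a replicate 2 summit within 100 bp, against 14.1% of all.

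The weaker summits lay mostly in introns and in sequence poor in G and C. Of the 33 pooled summits, 21 (63.6%) were in introns and 7 (21.2%) were intergenic, against 39.6% and 43.6% of all nuclear pooled summits. Introns made up 49.1% and intergenic sequence 10.4% of the bases in the 9 windows. In coding exons there was 1 summit (3.03%), against 10.9% of all nuclear pooled summits and 29.6% of the bases in the 9 windows. Within 100 bp of the summit, G and C made up 48.3% at ced-2, 43.3% at ced-9 and 38.3% at pig-1. At the other 30 summits they made up 15.9 to 38.3%, and 25 of the 33 lay below 30%. Medians were 26.9% for the 33 summits, 41.3% for all nuclear thresholded summits and 32.8% for all nuclear pooled ones. The part of base composition in the signal values was not tested.

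**Figure D4:**
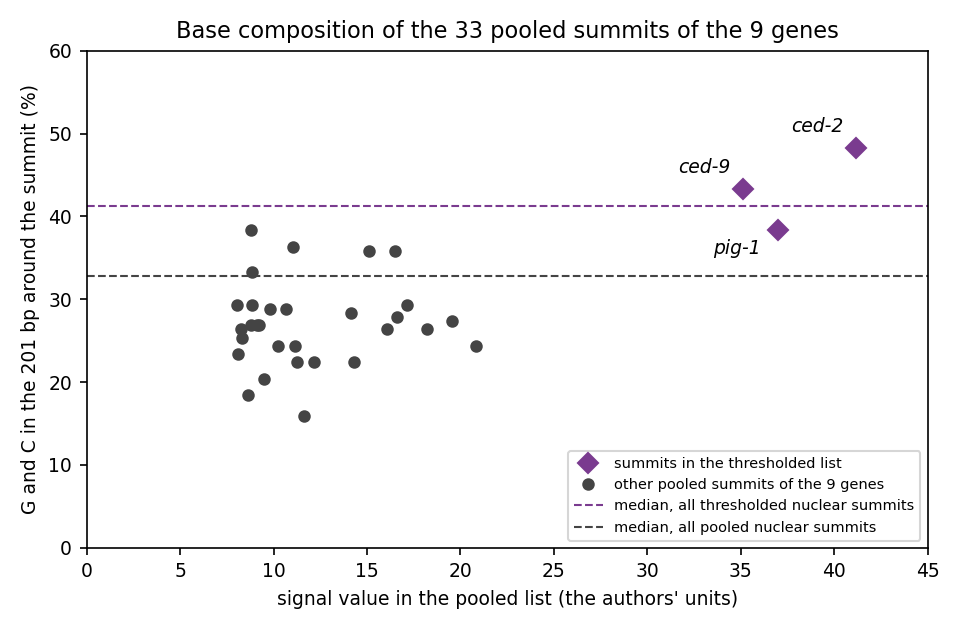
Percent of G and C in the 201 bp around each of the 33 pooled summits of the 9 genes (vertical) against the authors' signal value (horizontal). The thresholded summits of ced-2, ced-9 and pig-1 (purple) lie at 48.3, 43.3 and 38.3%, and the dashed lines give the medians of 41.3% for all thresholded and 32.8% for all pooled nuclear summits.

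Over the 33 pooled summits, TGATNNAT occurred within 100 bp at 2 (6.06%), the ced-3 site at +241 bp and the ced-12 site at +1154 bp, against 15.3% of all pooled summits and 16.3% of windows at gene starts. The homeodomain words occurred at 14 (42.4%), against 39.9% and 40.9%. TGACAG occurred at 1 (3.03%), a ced-1 intron site, against 6.51% and 6.38%. In these shares the homeodomain words were near the level of all pooled summits. The other 2 words, with 2 and 1 matches, were too few to be set above or below it. GAGACG, picked after the windows of the thresholded sites had been read, occurred at 3 (9.09%), against 6.13% and 7.56%. The ced-9 and pig-1 windows, among those read, gave 2 of these matches, and the ced-3 site at +241 bp gave the other. The 9.09% is therefore no measure of an excess.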

How the data were processed

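The authors deposited peak lists on ce11, made per the file descriptions from 2 biological replicates with a control alignment: a relaxed list of 30000 peaks for each replicate and for both pooled, and a thresholded list of 502. No caller, aligner or version is named there (not given in the sources used here). Read depth is unknown, so the counting error of the values could not be estimated. Each peak's signal value is the authors' deposited measure, and peaks were ranked by it separately in every list. Summit positions came from the deposited summit offsets. The ce10 lists were not used.

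Summits were matched to gene models of Ensembl release 115, with RefSeq symbols for 99.9% of genes. The 9 genes and the wider lists were chosen with earlier results of these data known. Named besides the 9 genes were egl-1, ced-13, ced-6 and ced-7, listed genes with a thresholded summit, and genes starting nearest to a thresholded summit of the 9. jmjd-4, T07C4.12, csnk-1, C35D10.8 and F26A1.1 were named for their place at a summit, after its values were seen. Words were looked for on either strand, up to 100 bp from a summit, and in 201 bp windows centred 100 bp upstream of gene starts. With 1 group of 2 replicates no test was made, and replicates are given side by side. Alternatives changed the peaks counted, the gene window, the assignment and the motif window. The window assignment and motif search were tested on simulated data. Python 3.11.15, numpy 2.4.6, pandas 2.3.3 and matplotlib 3.10.9 were used.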

Additional observations from a re-analysis of the deposited data

How the results depend on the processing

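The 9 genes held 3 thresholded targets with 2000 bp upstream (2.93% of all genes), 5000 bp upstream (4.36%), a window ending 500 bp past the start (2.48%), or any overlap of the peak (3.17%). The count was 0 with the 251 strongest thresholded peaks (1.34% of all genes), 1 with 500 bp upstream (pig-1, 1.88% of all genes) and 1 with the nearest gene start alone (pig-1, 1.78%). Without replicate 2 or without replicate 1, with the strongest 502 peaks of the replicate left, it ran from 1 to 2 and the share of all genes from 2.78% to 2.83%. It was ced-2 alone without replicate 1, and ced-9 and pig-1 without replicate 2. Of the 9 genes, 8 or 9 had a relaxed summit in each alternative, while the share of all genes ran from 46.0% at or above the median signal value to 77.7% with the 5000 bp window. With 50 bp on each side, TGATNNAT occurred at 1 and the homeodomain words at 9 of 33 summits. With any overlap, the best pooled signal value of ced-4 was 17.4. With a window ending 500 bp past the start, ced-5 had 14.2, ced-10 had 8.77, and ced-1 had no pooled summit. The 5000 bp window gave ced-1 24.7. With 2 replicates and no read counts, differences in rank between sites carry no error estimate. No paired analysis was possible because there is 1 group.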

Other observations

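None of the other main genes of the same pathways, egl-1, ced-13, ced-6 and ced-7, had a thresholded summit. Only 2.93% of all genes had one, so its absence separates few genes. egl-1, the BH3-only trigger, had no pooled or replicate 1 summit in its window of 3052 bp, and replicate 2 had 2, the stronger at -417 bp with rank 7185. Its nearest thresholded summit was 416405 bp away. These values come from whole embryos of mixed stage, with all cells pooled. They do not cover stages after hatching or single cells, and so say nothing of egl-1 in the ventral cord neuron named above. ced-13, the other BH3-only gene, with a window of 2536 bp, had a pooled summit at -203 bp with rank 6966, a replicate 2 rank of 21546 and no replicate 1 summit. Of the partners of CED-1, the adaptor gene ced-6 had a pooled summit at -1016 bp, with rank 4032, which ranked 1467 in replicate 2 and was absent from replicate 1. The transporter gene ced-7 ranked 5196 in the pooled list, 7143 in replicate 1 and 7784 in replicate 2 at a site within the gene.

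Of 66 names in 8 lists of cell death, engulfment and PIG-1 pathway genes, 65 were matched, and 6 had a thresholded summit, against 2.93% of all genes. Among these 6 were ced-9, ced-2 and pig-1, already counted above. Of the 56 matched genes other than the 9, 3 had a thresholded summit: abl-1, rab-5 and ccz-1. abl-1, a tyrosine kinase gene, had an intron summit at +11621 bp with a signal value of 46.3 and ranks of 263 in replicate 1 and 256 in replicate 2. The start of another gene was nearer to this summit, at 7900 bp. The abl-1 window was long, at 20381 bp, and held 12 pooled summits. rab-5, the early endosome GTPase gene, had one at -732 bp with a signal value of 39.2 and ranks of 444 and 594. ccz-1, a gene of the step from early to late phagosomes, had one at -99 bp with a signal value of 36.8, and its replicate ranks of 4377 and 350 lay far apart. By list, the CED-10 Rac branch held 2 thresholded targets of 10 genes, corpse maturation 2 of 13, core killing 1 of 5 and the PIG-1 list 1 of 9. Without the 9 genes these counts were, in the same order, 1 of 6, 2 of 13, 0 of 2 and 0 of 8. The CED-1 branch (6 genes), regulators of the killing genes (8), phosphatidylserine exposure and DNA degradation (11) and caspase-related genes (3) held 0. Of the 56 matched genes other than the 9, 20 had one of the 5000 strongest pooled summits, against 21.9% of all genes. The median best signal value of those with a pooled summit was 15.3, against 13.7 for all genes with one.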
